A study of Mus musculus with 6 samples.

Results

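The plasminogen activators and their receptor, 3 matrix metalloproteinases (MMPs) and 3 tissue inhibitors of metalloproteinases (TIMPs) were followed in mouse tumor organoids (MTOs) exposed to the chemotherapy Folfiri. These 9 genes, Plau, Plat, Plaur, Mmp7, Mmp14, Mmp15, Timp1, Timp2 and Timp3, were taken by name as extracellular proteases and inhibitors linked to invasion, and all 9 were among the 24190 genes of the count table. Of the 9, 7 passed edgeR's expression filter and entered the test of 14692 genes. Mmp14 and Timp3 did not.

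RNA was sequenced from MTO54, an AKP colorectal cancer organoid line, named for the tumor genotype it carries. All samples were parental MTO54, so the comparison rests on 1 line of 1 genotype, grown as epithelium alone in basement membrane extract (BME) and stem cell medium, without the stroma, vessels or immune cells of a tumor. The 3 control MTOs received medium alone. The 3 Folfiri MTOs received medium with SN38 at 100 nM and 5FU at 50 μg/μl (unit as labelled), for 2 days that began 2 days after seeding. 5FU blocks thymidylate synthesis and SN38, the active form of irinotecan, inhibits topoisomerase I. The comparison asks how chemotherapy altered expression of this protease network in the tumor cells themselves.

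The plasminogen system turns the circulating zymogen plasminogen into plasmin, a serine protease that degrades fibrin and matrix proteins. Urokinase, the product of Plau, does so mainly at the cell surface, where it binds its receptor uPAR, the product of Plaur, whereas tissue plasminogen activator, the product of Plat, acts mainly on fibrin. MMPs are zinc proteases that cut collagens, laminins and other matrix or surface proteins, and TIMPs bind their active sites. In colorectal cancer these proteases have been studied chiefly for their part in invasion.

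Counts on genes ranged from 22103591 to 30098210 per sample. Levels are given in CPM, counts scaled to the size of each library with TMM factors that also correct for composition. Log2 changes, always Folfiri over control, come from edgeR's quasi-likelihood test with Benjamini-Hochberg adjustment over the 14692 genes and a threshold of 0.05. Folfiri altered much of the transcriptome. Of all tested genes, 79.1% passed this threshold, 40.3% higher and 38.8% lower after Folfiri, and 19.5% were both called and at least 2-fold higher. Of the calls, 51.0% were higher (5926 genes, with 5697 lower). With total counts as the only scaling, 63.3% were higher (7322 genes, with 4250 lower), so the balance of directions depends on the scaling. A call for a single gene was therefore common, and sizes are given with each call. The samples are described with the study as biological replicates, but neither that description nor the labels says what was separate between them (wells, passages or days), so p values measure the spread between these samples of 1 line. In such bulk samples a change in the share of cells that use a gene and a change in RNA per cell cannot be told apart.

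Against this background, 5 of the 7 tested genes were called, 4 higher (Plau, Plat, Plaur and Mmp15) and 1 lower (Mmp7), and 2 were not called (Timp1 and Timp2). Plau and Plat were the 2 that were at least 2-fold higher. Counts this close to the shares of all genes are no result about the set as a whole. The median log2 change of the 7 was 0.40, beside 0.02 over all tested genes. The 9 genes together rose from between 339 and 361 CPM in control MTOs to between 680 and 706 CPM after Folfiri.

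**Figure D1:**
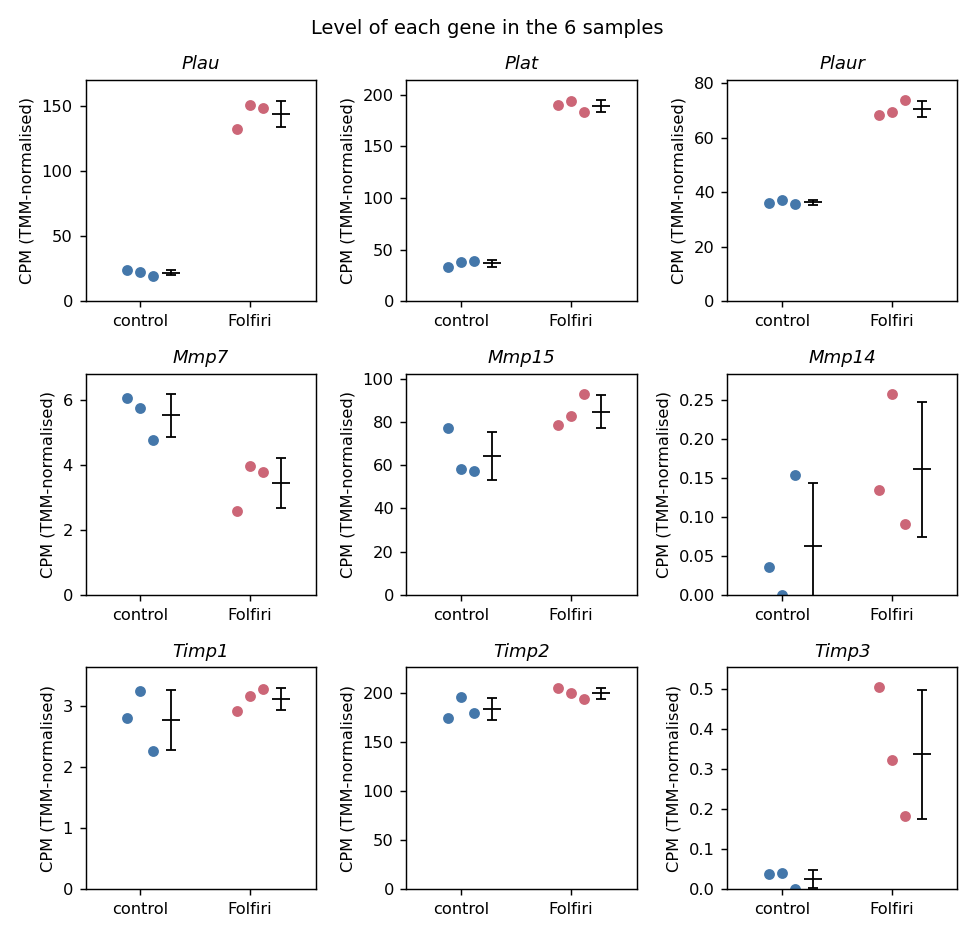
Levels of the 9 genes in TMM-normalized CPM (y axis, linear, from 0, scaled for each gene) in control and Folfiri MTOs. Points are samples, and bars are the mean with SD of 3 samples. Plau, Plat and Plaur separate most clearly, with Plau near 22 CPM in controls and 144 CPM after Folfiri, whereas the groups overlap for Timp1, Timp2 and Mmp14.

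Plau (ENSMUSG00000021822, chr14:20836660-20843385 of GRCm38, plus strand) showed the largest rise of the tested genes in this set. It stood at 24.1, 22.3 and 19.7 CPM in control replicates 1, 2 and 3, and at 132, 151 and 148 CPM in Folfiri replicates 1, 2 and 3. Every Folfiri sample lay far above every control sample. The means were 22 ± 2.17 and 144 ± 10.6 CPM (mean ± SD, n = 3 per group), a 6.5-fold rise, with a log2 change of 2.70 (SE 0.09, 95% interval 2.49 to 2.91, adjusted p = 5.18e-09, edgeR's quasi-likelihood test). Only 3.25% of tested genes had a larger log2 change.

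Plat (ENSMUSG00000031538, chr8:22757727-22782844, plus strand), which encodes the other plasminogen activator, rose almost as much. Its levels were 33.1, 38.4 and 39.0 CPM in the controls and 190, 194 and 183 CPM after Folfiri, with no overlap. Means moved from 36.8 ± 3.26 to 189 ± 5.94 CPM (mean ± SD, n = 3 per group), 5.14-fold, and the log2 change was 2.36 (SE 0.08, 95% interval 2.18 to 2.54, adjusted p = 4.98e-09, edgeR). A larger log2 change was found in 4.4% of tested genes.

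Plaur (ENSMUSG00000046223, chr7:24462484-24475968, plus strand), the gene of the urokinase receptor, rose less than its ligand. Control levels of 36.1, 37.3 and 35.6 CPM became 68.4, 69.3 and 73.8 CPM. The groups did not overlap, and each was tight. From 36.3 ± 0.868 to 70.5 ± 2.86 CPM (mean ± SD, n = 3 per group), the change was 1.94-fold, or 0.96 on the log2 scale (SE 0.07, 95% interval 0.80 to 1.12, adjusted p = 6.36e-07, edgeR). Here 20.4% of tested genes had a larger log2 change. The intervals of Plaur and Plau lie far apart.

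The sequences upstream of Plaur, Mmp7 and Mmp15 are shown because these are the called genes with a window in the RefSeq promoter table, which matched 7 of the 9 genes, and because Plaur and Mmp7 moved in opposite directions. They are RefSeq sequences on GRCm38.p6, plus strand, of bases before the annotated start site (Plaur chr7:24462233-24462482, Mmp7 chr9:7691840-7692089, Mmp15 chr8:95352046-95352267). Capitals mark matches on either strand to an AP-1 motif (TGANTCA), an ETS motif (AGGAAG, or CTTCCT when read on the other strand) and a TATA box (TATAAA), none of which overlap here.
Plaur: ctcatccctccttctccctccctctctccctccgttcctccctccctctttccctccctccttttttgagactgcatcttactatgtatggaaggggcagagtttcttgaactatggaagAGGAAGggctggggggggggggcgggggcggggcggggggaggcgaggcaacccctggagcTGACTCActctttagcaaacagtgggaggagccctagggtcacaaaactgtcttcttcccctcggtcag
Mmp7: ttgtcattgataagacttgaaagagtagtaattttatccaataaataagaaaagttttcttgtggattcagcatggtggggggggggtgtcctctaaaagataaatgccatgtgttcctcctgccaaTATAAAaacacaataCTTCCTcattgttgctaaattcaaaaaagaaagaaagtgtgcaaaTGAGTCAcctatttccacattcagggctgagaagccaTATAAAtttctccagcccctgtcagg
Mmp15: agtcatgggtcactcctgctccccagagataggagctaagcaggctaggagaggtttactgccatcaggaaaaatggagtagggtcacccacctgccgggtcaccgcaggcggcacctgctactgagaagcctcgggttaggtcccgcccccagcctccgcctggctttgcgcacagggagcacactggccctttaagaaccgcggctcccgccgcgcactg
AP-1 letters occurred in 6.75% of 32851 windows of 250 bases in the table, ETS letters in 29.5% and TATA letters in 12.4%. The Plaur window held 1 AP-1 match, from -69 to -63 relative to the start site, and 1 ETS match, from -130 to -125. The Mmp7 window held 1 AP-1 match, from -63 to -57, 1 ETS match, from -108 to -103, and TATA letters from -26 to -21 and from -123 to -118. The table holds another Mmp7 start site, at 7692341, whose window had 1 ETS match and 0 AP-1 or TATA matches. No match to these letters fell in the 250 bases before the RefSeq start site of Mmp15, at 95352296. Of these the 222 bases upstream of the GENCODE gene start are printed.

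Of the MMPs, Mmp15 and Mmp7 moved in opposite directions. Mmp15 (ENSMUSG00000031790, chr8:95352268-95375080, plus strand) encodes MT2-MMP, a membrane-anchored protease. It measured 77.0, 58.1 and 57.4 CPM in controls and 78.5, 82.8 and 93.0 CPM after Folfiri. Control replicate 1 stood apart from the other controls and only just below the lowest Folfiri sample. The rise from 64.1 ± 11.1 to 84.8 ± 7.48 CPM (mean ± SD, n = 3 per group) was 1.32-fold, a log2 change of 0.40 (SE 0.12, 95% interval 0.14 to 0.66, adjusted p = 0.0087, edgeR). A larger log2 change was found in 36.7% of tested genes.

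Mmp7 (ENSMUSG00000018623, chr9:7692090-7699585, plus strand) encodes matrilysin, a small secreted MMP of epithelial cells that Paneth cells also make. Its levels were 6.05, 5.76 and 4.78 CPM in controls and 2.58, 3.97 and 3.79 CPM after Folfiri. All Folfiri samples were below all controls, though replicates of both groups were uneven. The mean fell from 5.53 ± 0.664 to 3.45 ± 0.755 CPM (mean ± SD, n = 3 per group), 1.61-fold, with a log2 change of -0.69 (SE 0.18, 95% interval -1.09 to -0.29, adjusted p = 0.00489, edgeR). With total counts as the only scaling the value was -0.41 and no longer called (adjusted p = 0.0791, edgeR). Over all alternatives the adjusted p of Mmp7 ran from 0.000299 to 0.0791 (edgeR and DESeq2).

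Paneth cells make Mmp7, and the 2 tested genes of the Paneth list, Pla2g2a and Itln1, were also lower. Summed over 8 markers, of which 5 had a count, the level was 28.3 to 29.1 CPM in controls and 8.55 to 11.5 CPM after Folfiri. Pla2g2a, the highest, went from 21.7 ± 0.593 to 5.52 ± 1.11 CPM (mean ± SD, n = 3 per group) and Itln1 from 6.82 ± 0.119 to 4.14 ± 0.505 CPM (mean ± SD, n = 3 per group). The other markers with a count, Defa24, Defa30 and Ang4, were close to absent, with means of at most 0.0373 CPM in either group. Lyz1, Defa17 and Defa22, which define the cell type, were not among the genes of the table, which holds no gene at 0 in all samples. The part of Paneth-like cells in the Mmp7 result was not tested.

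Mmp14 (ENSMUSG00000000957, chr14:54431612-54445364, plus strand), the gene of MT1-MMP, the main surface activator of proMMP2, was barely detected. The raw counts were 1, 0 and 3 in controls and 4, 8 and 3 after Folfiri, and the groups overlap once scaled for depth. Scaled for depth, the Folfiri total was 2.89 times the control total, with a 95% interval for counting error of 0.92 to 12, which includes no change. A difference in Mmp14 was not detectable at this depth, and mean levels were 0.0634 ± 0.0807 and 0.161 ± 0.0868 CPM (mean ± SD, n = 3 per group). Intervals from counts cover counting error only.

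Within a sample, the balance of the 3 MMPs shifted from Mmp7 toward Mmp15. On the scale of CPM per kb of exon, which allows levels of different genes to be compared, Mmp7 made up 28.4%, 33.4% and 29.6% of the summed Mmp7, Mmp14 and Mmp15 level in controls and 14.2%, 19.5% and 17.1% after Folfiri. Mmp15 made up 71.5%, 66.6% and 70.2% in controls and 85.6%, 80.3% and 82.9% after Folfiri. The groups did not overlap for either share. The Mmp15 share was higher by 13.5 percentage points (exact permutation test, two-sided, p = 0.1, and 0.2 after adjustment over 6 such shares), and 3 against 3 samples cannot give a p below 0.1. Without scaling for length the difference was 4.02 points.

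Neither tested TIMP was called. Timp2 (ENSMUSG00000017466, chr11:118301069-118355740, minus strand), whose product inhibits MMPs and also takes part in MMP2 activation, measured 174, 196 and 180 CPM in controls and 205, 200 and 194 CPM after Folfiri. One control sample lay between the Folfiri values. The means of 184 ± 11.4 and 200 ± 5.55 CPM (mean ± SD, n = 3 per group) gave a log2 change of 0.12 (SE 0.07, 95% interval -0.04 to 0.28, adjusted p = 0.14, edgeR), so a rise above 0.28 lay outside the interval. The call depended on scaling, with a log2 change of 0.40 for total counts only (adjusted p = 0.000238, edgeR) and 0.18 for upper quartile scaling (adjusted p = 0.032, edgeR).

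Timp1 (ENSMUSG00000001131, X:20870166-20874735, plus strand), the gene of a secreted inhibitor of many MMPs, was low. It stood at 2.81, 3.24 and 2.26 CPM in controls and at 2.92, 3.16 and 3.28 CPM after Folfiri, with overlapping groups. The log2 change was 0.16 (SE 0.17, 95% interval -0.21 to 0.53, adjusted p = 0.395, edgeR), and 0.43 with total counts only (adjusted p = 0.0421, edgeR). Timp1 lies within Syn1, a gene on the opposite strand, which had at most 8 counts in any sample.

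Timp3 (ENSMUSG00000020044, chr10:86300372-86349506, plus strand), whose product stays bound to the matrix, went from 1, 1 and 0 counts in controls to 15, 10 and 6 after Folfiri. Every Folfiri sample was above every control. The depth-scaled Folfiri total was 11.9 times that of controls, with a 95% counting interval of 3.04 to 103. The level remained low, at 0.0253 ± 0.022 and 0.336 ± 0.161 CPM (mean ± SD, n = 3 per group). Fitted without the expression filter, Timp3 had a log2 change of 3.36 (SE 0.80, adjusted p = 0.000401, edgeR) and Mmp14 of 1.43 (SE 0.86, adjusted p = 0.172, edgeR). Timp3 shares 1733 exon bases with Syn3 on the opposite strand, and without strand their reads cannot be told apart, although the counts listed for Syn3 itself were 15, 11 and 3 in controls and 16, 12 and 14 after Folfiri.

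Because stromal cells express Timp3, fibroblast markers were looked at, and they did not move together. Over 10 fibroblast markers, of which 8 had a count, the sum was 1.08 to 1.54 CPM in controls and 2.09 to 2.55 CPM after Folfiri. Dcn had 0.024 ± 0.0416 CPM in controls and 0.694 ± 0.126 CPM after Folfiri, and Pdgfra had 0.397 ± 0.117 and 1.14 ± 0.176 CPM (mean ± SD, n = 3 per group), whereas Col1a1, a defining collagen, moved from 0.842 ± 0.216 to 0.301 ± 0.0637 CPM (mean ± SD, n = 3 per group). Dcn and Pdgfra passed the filter through their Folfiri samples, so they are given as levels alone. Col1a2, Col3a1, Pdgfrb, Thy1 and Fap had means of at most 0.0436 CPM in either group. Lum and Postn were not among the genes of the table. Timp3 and Dcn each had 2 counts over the 3 controls. Of all 8866 genes with at most 10 control counts, 76.5% had more counts after Folfiri. The part of fibroblast-like cells in the Timp3 result was not tested.

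Timp2 supplied most TIMP message in both groups. In CPM per kb of exon, Timp2 made up 93.8 ± 0.852% of the summed level of the 3 TIMPs in controls and 93.5 ± 0.482% after Folfiri (mean ± SD, n = 3 per group, exact two-sided permutation test, p = 0.7). The share of Timp1 was 6.19 ± 0.846% and 6.41 ± 0.516% (mean ± SD, n = 3 per group, exact permutation p = 0.7). The Timp3 share was 0.00611 ± 0.00529% in controls and 0.0747 ± 0.0344% after Folfiri, without overlap (mean ± SD, n = 3 per group, exact permutation p = 0.1, adjusted 0.2).

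**Figure D2:**
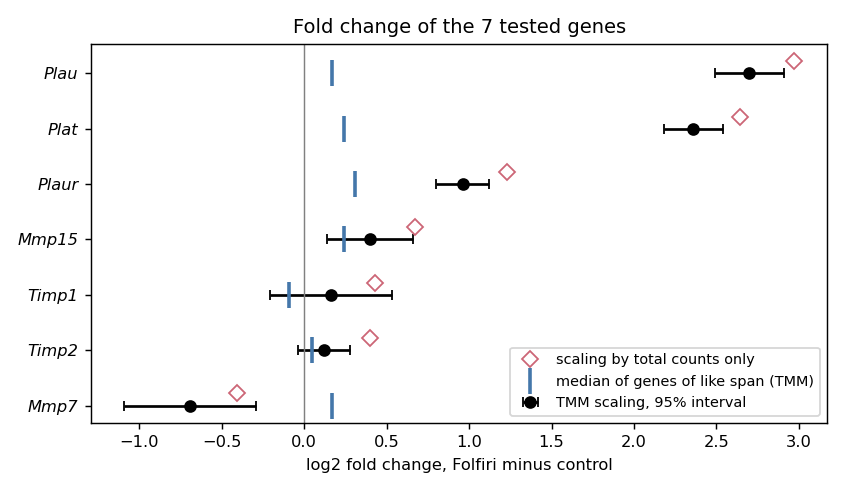
Log2 change, Folfiri against control, of the 7 tested genes (x axis), with 95% intervals from edgeR's quasi-likelihood fit on 3 against 3 samples. Plau (2.70) and Plat (2.36) stand to the right of Plaur (0.96) and Mmp15 (0.40), the intervals of Timp1 and Timp2 include 0, and Mmp7 (-0.69) lies below 0.

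The order of levels per kb of exon changed as Plau moved to the top. In controls, in CPM per kb of exon, Timp2 was highest at 47.1 ± 2.92, followed by Plaur at 13.9 ± 0.332, Mmp15 at 11.9 ± 2.06 and Plau at 9.31 ± 0.916 (mean ± SD, n = 3 per group). Plat at 5.9 ± 0.523, Mmp7 at 5.18 ± 0.622 and Timp1 at 3.12 ± 0.551 came next, and Mmp14 and Timp3 were lowest, at 0.0106 and 0.00311. Neighbours whose sample values overlapped were Plaur and Mmp15, Plat and Mmp7, and Mmp14 and Timp3.

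After Folfiri, Plau led at 60.7 ± 4.47 CPM per kb, above Timp2 at 51.3 ± 1.42, and no Plau sample overlapped a Timp2 sample. Plat at 30.3 ± 0.952 had passed Plaur at 26.9 ± 1.09, with Mmp15 at 15.7 ± 1.39 behind (mean ± SD, n = 3 per group). Timp1 at 3.51 ± 0.207 and Mmp7 at 3.23 ± 0.707 overlapped, as did Timp3 at 0.0412 and Mmp14 at 0.027. This order depends on the scaling for length. In CPM, Timp2 (mean 200) and Plat (189) were above Plau (144) after Folfiri, and Plat (36.8) and Plaur (36.3) were alike in controls. The exon union of Plat has 6241 bases and its longest transcript 4042, so its place between neighbours is uncertain.

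**Figure D3:**
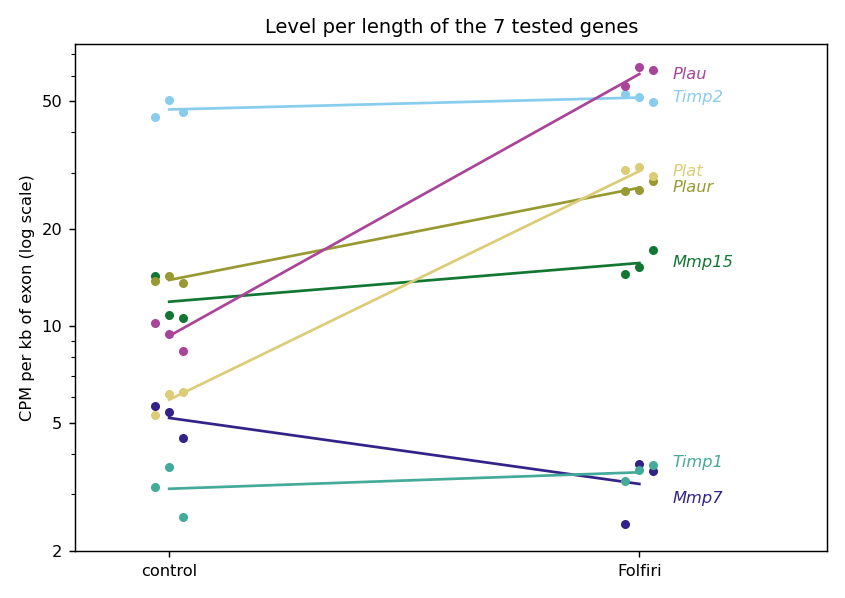
Levels of the 7 tested genes in CPM per kb of exon (y axis, log scale) in control and Folfiri MTOs. Points are the 3 samples of each group and lines join the group means. The lines of Plau and Plat are the steepest, and Plau passes from below Plaur (13.9) to above Timp2 (51.3).

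Ratios within a sample, which do not depend on scaling between samples, were picked after these levels had been seen and are given without a test. The ratio of Plau to Plaur, each per kb of exon, was 0.737, 0.661 and 0.613 in controls and 2.13, 2.41 and 2.22 after Folfiri, so message for the ligand went from below to above that for its receptor. The ratio of Plat to Plau was 0.521, 0.653 and 0.749 in controls and 0.548, 0.487 and 0.468 after Folfiri, with overlap. Mmp15 to the summed TIMPs was 0.298, 0.199 and 0.218 in controls and 0.26, 0.279 and 0.322 after Folfiri, again with overlap. Mmp7 to the summed TIMPs was 0.118, 0.0998 and 0.0917 in controls and 0.0432, 0.0675 and 0.0664 after Folfiri, without overlap.

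The genes around these 9 in the pathway were taken from 7 lists. Their counts of calls are descriptions, to be read beside the shares of all tested genes (79.1% called, 40.3% higher and 38.8% lower). Plasminogen itself (Plg) had 1 count in the 6 samples together, so its message was close to absent from these cells. Of 7 genes for plasminogen and its binding sites, 5 were tested, and of these 2 were higher and 3 lower, with a median log2 change of -1.03 beside 0.02 over all tested genes. S100a10, the annexin partner that binds plasminogen at the cell surface, rose from 311 ± 25.7 to 381 ± 25.5 CPM (mean ± SD, n = 3 per group), a log2 change of 0.29 (adjusted p = 0.00899, edgeR). Plgrkt, a plasminogen receptor, had a log2 change of 0.22 (adjusted p = 0.0216, edgeR), a call that was lost without Folfiri replicate 1 (adjusted p = 0.0635, edgeR) or 2 (adjusted p = 0.0511, edgeR) and with no expression filter (adjusted p = 0.0778, edgeR).

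Anxa2, which forms a plasminogen-binding complex with S100a10, fell from 1790 ± 162 to 856 ± 36.4 CPM (mean ± SD, n = 3 per group), with a log2 change of -1.06 (adjusted p = 2.29e-06, edgeR). Eno1, a glycolytic enzyme that also binds plasminogen at the cell surface, fell by 1.03 on the log2 scale (adjusted p = 4.53e-06, edgeR). Lrp1, the endocytic receptor that clears urokinase bound to inhibitor, fell from 19.7 ± 1.36 to 4.02 ± 0.71 CPM (mean ± SD, n = 3 per group), a log2 change of -2.29 (SE 0.14, adjusted p = 1.25e-07, edgeR). The activators and the message of their clearance receptor thus moved in opposite directions.

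Of 5 listed serpins that act on the plasminogen system, 4 had a count and 2 were tested, both called higher, beside 40.3% of all tested genes. Serpina5 was not among the genes of the table, and Serpini1 was below the filter. The list is not complete, so this count does not describe the serpins as a family. Serpinb2, which encodes PAI-2, a urokinase inhibitor, rose from 3, 0 and 0 counts to 98, 135 and 137. Its depth-scaled ratio was 95 (95% counting interval 32.2 to 463), and its fitted log2 change was 6.42, or 9.77 without control replicate 1. It passed the expression filter through its Folfiri samples alone, so no p is given.

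Serpine2, which encodes protease nexin 1, had a log2 change of 0.81 (adjusted p = 0.0222, edgeR). That call was lost without control replicate 3 (adjusted p = 0.0781, edgeR), without Folfiri replicate 1 (adjusted p = 0.0963, edgeR) and with DESeq2's Wald test (adjusted p = 0.054). Serpinf2, the gene of the plasmin inhibitor alpha-2-antiplasmin, went from 2 to 44 counts in all and was below the filter.

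Of the 20 other MMP genes, 19 had a count, 6 were tested, 4 were higher, 1 was lower and 1 was not called, with a median log2 change of 1.48. Among all tested genes, 79.1% were called, so a count of this size is no result about these MMPs. Mmp13, a collagenase, had 5, 9 and 5 counts in controls and 110, 168 and 160 after Folfiri. Its log2 change was 4.12 (SE 0.28). Mmp10, stromelysin-2, had 0, 5 and 0 counts in controls and 45, 33 and 63 after Folfiri, a ratio of 21.7 (95% counting interval 9.09 to 67.9). Its fitted log2 change of 4.35 was 3.69 without control replicate 1 and 8.40 without control replicate 2. Both genes came from almost nothing in controls and remained below 5 CPM on average after Folfiri.

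Mmp24, a membrane-type MMP, had 11, 3 and 4 counts in controls and 55, 32 and 34 after Folfiri, a log2 change of 2.36 (SE 0.42), or 3.0 without control replicate 1. It shares 637 exon bases with BC029722 on the opposite strand, a gene with 1222 counts in the 6 samples, so its counts are uncertain. Mmp28, epilysin, had a log2 change of 0.61 (adjusted p = 0.00088, edgeR) and was the remaining called riser, named to complete the count. It shares 466 exon bases with 1700020L24Rik on the opposite strand, which had 189 counts in the 6 samples, and is likewise uncertain. Mmp17, a glycosylphosphatidylinositol-anchored MMP, fell from 1.2 ± 0.273 to 0.437 ± 0.0422 CPM (mean ± SD, n = 3 per group), with a log2 change of -1.44 (adjusted p = 0.000527, edgeR). Serpinb2, Mmp10, Mmp13 and Mmp24 passed the expression filter through their Folfiri samples and so had to differ, so no p is given for them, and the list counts and medians that include them are descriptions. The other MMP inhibitors Timp4, Reck and A2m were all below the filter.

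Of 7 proprotein convertases and MMP cofactors, 6 were tested, and of these 2 were lower, 4 were not called and 0 were higher (edgeR, 0 higher also at an unadjusted p under 0.05 and with DESeq2). Among all tested genes, 38.8% were lower and 40.3% higher. Furin, which activates membrane-type MMPs by cutting off their propeptide, had 119 ± 9.26 CPM in controls and 132 ± 13.2 CPM after Folfiri (mean ± SD, n = 3 per group, log2 change 0.16, adjusted p = 0.136, edgeR). Bsg, which encodes the MMP inducer basigin, fell from 2950 ± 538 to 585 ± 33.7 CPM (mean ± SD, n = 3 per group), a log2 change of -2.34 (adjusted p = 1.19e-07, edgeR), and Sdc1, a surface proteoglycan, fell by 0.93 on the log2 scale (adjusted p = 1.87e-06, edgeR). Pcsk5, a convertase below the filter, went from 3, 2 and 0 counts to 11, 8 and 13 (depth-scaled ratio 4.93, 95% counting interval 1.91 to 16.2). With total counts only, 5 of the list were called, 3 of them higher, and with no expression filter 3 were called, 1 of them higher.

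The epithelial membrane serine proteases and their inhibitors, a list that includes matriptase (St14) and hepsin, which can activate pro-urokinase, were mostly lower. All 7 listed genes were tested, and 6 were lower, the inhibitor gene Spint2 among them, and 1 was higher, with a median log2 change of -0.78. Among all tested genes, 38.8% were lower and 40.3% higher, with a median of 0.02. Tmprss4 fell from 57.8 ± 5.0 to 13.0 ± 1.37 CPM (mean ± SD, n = 3 per group, log2 change -2.15, adjusted p = 3.2e-08, edgeR), Hpn (hepsin) fell by 1.19 and Prss8 (prostasin) fell by 1.01 on the log2 scale. Spint1, the inhibitor HAI-1 of matriptase and hepsin, rose from 123 ± 3.07 to 151 ± 4.59 CPM (mean ± SD, n = 3 per group, log2 change 0.30, adjusted p = 0.00157, edgeR).

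Of 13 basement membrane genes whose products plasmin and MMPs cut, 12 were tested, 10 were lower, 1 was higher and 1 was not called, with a median log2 change of -0.80. Among all tested genes, 38.8% were lower and 40.3% higher, with a median of 0.02. Col4a2, a chain of type IV collagen, fell from 30.5 ± 3.33 to 8.11 ± 1.26 CPM (mean ± SD, n = 3 per group, log2 change -1.91, adjusted p = 3.07e-07, edgeR). Lama3, a chain of laminin-332, fell by 1.65 and Hspg2 (perlecan) fell by 1.55 on the log2 scale. Agrn (agrin), a heparan sulfate proteoglycan, rose from 155 ± 5.36 to 243 ± 7.28 CPM (mean ± SD, n = 3 per group, log2 change 0.65, adjusted p = 6.55e-06, edgeR). Without strand, counts are uncertain for Col4a2, which shares 22 exon bases with Col4a1 on the opposite strand, and for Prss8, which shares 122 with Kat8. Lama3 (Gm29200, 197 bases), Tmprss4 (Gm17099, 412 bases) and Mmp7 (AV064505, 123 bases) also share exon bases with an opposite-strand gene, each of which had 0 counts. Serpinb2 shares 291 bases on its own strand with Serpinb10, which had 15 counts in the 6 samples.

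**Figure D4:**
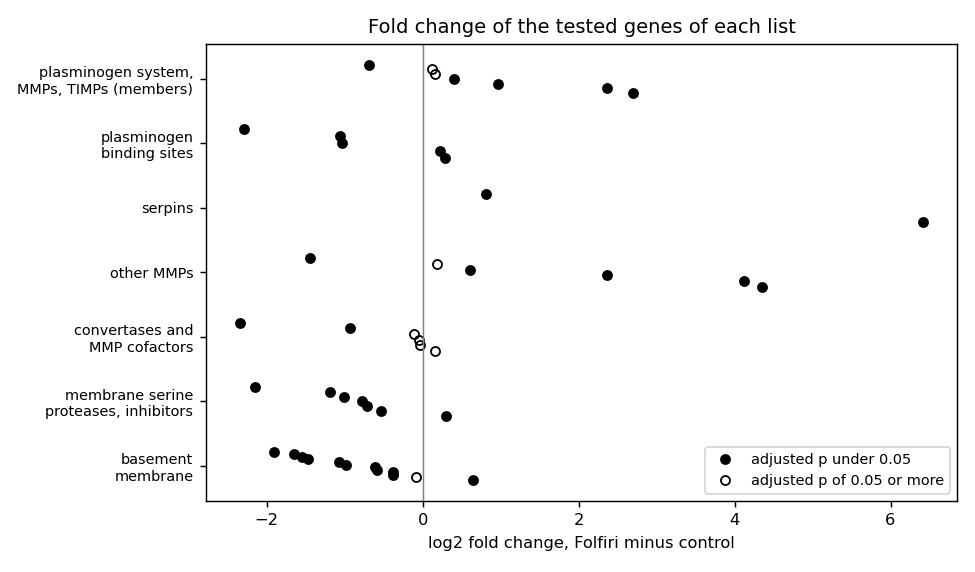
Log2 change, Folfiri against control, of the tested genes of each pathway list (x axis), with lists as rows. Each point is a gene, filled where the adjusted p was under 0.05 and open otherwise. The serine proteases and basement membrane genes lie mostly below 0 (medians -0.78 and -0.80). Of the other MMPs (median 1.48), Mmp10, Mmp13 and Mmp24 passed the expression filter through their Folfiri samples and so had to differ. The same holds for Serpinb2 among the serpins. The remaining MMPs, Mmp11, Mmp17 and Mmp28, lie at 0.19, -1.44 and 0.61.

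Epithelial markers were high in both groups, as for the labelled cell type, but several were lower after Folfiri. The 7 of them summed to between 5730 and 6640 CPM in controls and to between 4650 and 4820 CPM after Folfiri. All 7 were tested, and 4 were called lower (edgeR), among them Cdx2, from 157 ± 6.88 to 54.5 ± 0.753 CPM, and Epcam, from 1250 ± 145 to 653 ± 14.4 CPM (mean ± SD, n = 3 per group), and 1 (Cdh1) higher. Among all tested genes, 38.8% were lower and 40.3% higher. The Cdh1 call was lost with a replicate block (adjusted p = 0.067, edgeR), with no expression filter (adjusted p = 0.0711, edgeR) and without control replicate 2 or 3 or Folfiri replicate 1 or 2 (adjusted p from 0.0698 to 0.15, edgeR). Krt8, the least changed of the 4, lost its call without control replicate 2 or Folfiri replicate 1 or 2 (adjusted p from 0.0584 to 0.0943, edgeR) and with total counts only (log2 change 0.0, adjusted p = 0.95, edgeR). Macrophage markers, 8 of 8 with a count, summed to 21.5 to 26.1 CPM and 22.3 to 23.1 CPM, nearly all from Cd68, while the defining markers Lyz2 and Tyrobp reached means of at most 0.0202 CPM. Neutrophil markers summed to 900 to 1300 CPM in controls and 495 to 560 CPM after Folfiri, nearly all from Ly6g, with Mpo and Elane at means of at most 0.0536 CPM. Endothelial markers summed to 79.6 to 133 CPM and 69.1 to 79.4 CPM, mostly Cdh5, with Kdr at a mean of at most 0.074 CPM. Single markers of these lists were unequal. Of the neutrophil list, Ly6g was called lower, from 1130 ± 208 to 519 ± 31.7 CPM, and S100a8 higher, from 0.913 ± 0.294 to 5.22 ± 0.706 CPM (edgeR, mean ± SD, n = 3 per group). Vwf of the endothelial list was called lower, from 7.97 ± 0.603 to 3.65 ± 0.787 CPM (mean ± SD, n = 3 per group). Ptprc and Adgre1 of the macrophage list and S100a9 of the neutrophil list had means of 0.396, 0.226 and 0.304 CPM in controls and of 1.06, 0.863 and 4.37 CPM after Folfiri, and passed the filter through their Folfiri samples, so they are given as levels alone. Below the filter, Tek of the endothelial list went from 3 to 18 counts (depth-scaled ratio 4.62, 95% counting interval 1.35 to 24.5) and Csf1r of the macrophage list from 0 to 8 counts, at least 2.05-fold higher against a floor of 3 counts over the group. Csf1r shares 873 exon bases with Hmgxb3 on the opposite strand, which had 10138 counts in the 6 samples, so its counts are uncertain. The part of such cells in the results above was not tested.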

How the data were processed

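RNA sequencing of 3 control and 3 Folfiri samples of MTO54 was analysed. Per the labels and methods, poly(A) RNA was made into libraries with the NEBNext Ultra II RNA kit. The authors aligned reads to GRCm38 with STAR 2.5.2, obtained gene counts with Rsubread, and deposited these raw counts without normalization. Strand setting and treatment of reads with several positions are not given in the sources used here, so genes that overlap others are uncertain. The methods and labels give the treatment time used here, and a legend gives a longer one.

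Ensembl identifiers were matched to GENCODE symbols, positions and exon lengths on GRCm38 (24124 of 24190 matched). Counts were filtered with edgeR's filterByExpr at default settings, scaled by TMM and tested with the quasi-likelihood test of edgeR 4.0.16 in R 4.3.3, with Benjamini-Hochberg adjustment over all 14692 tested genes. CPM per kb used the union of exons. Ratios of low counts have exact conditional binomial 95% intervals. Shares within a sample were tested by exact permutation. On simulated data for this comparison, 88 of 98 genes changed by 1 on the log2 scale were called in the right direction. So were 95 of 95 changed by 2, and 12 unchanged genes were called among 14473 tested. Only these few genes were changed in the simulation, whereas 79.1% of tested genes were called in the data. The simulation therefore cannot show how the scaling or the rate of false calls behaves in these data.

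Named genes were the 9, up to 3 tested genes per direction of each list with the largest change among called genes with groups that did not overlap, the marker lists by range with the highest marker, and the 3 genes nearest in pattern to the largest riser and faller. Others were chosen after their values were seen. The members and lists were chosen with earlier results of these data known. Alternatives were DESeq2 1.42.0 size factors and Wald test, total counts, upper quartile scaling, other filters, a replicate block, leaving out each sample, centring on genes of like span, and other lengths. Results for some genes that these rules cover are left out.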

Additional observations from a re-analysis of the deposited data

How the results depend on the processing

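The direction of each of the 7 tested genes held in all 13 refits, and 5 or 6 of them were called in each. With total counts only, all tested genes had a median of 0.30 (0.02 with TMM), Mmp7 was at -0.41 and lost its call, and Timp1 (0.43) and Timp2 (0.40) gained one, as did Timp2 with upper quartile scaling (0.18). Less the median of genes of like genomic span, the values were 2.53 for Plau, 2.12 for Plat, 0.64 for Plaur and 0.16 for Mmp15. Leaving out each sample gave log2 changes of 2.62 to 2.77 for Plau, 2.29 to 2.39 for Plat, 0.92 to 0.98 for Plaur, 0.32 to 0.56 for Mmp15 and -0.79 to -0.51 for Mmp7. Called genes in all numbered 11623, with 10383 to 12742 under other settings, and DESeq2's Wald test called 11278.

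Among the 20 other MMPs, the 5 called of 6 tested became 9 without an expression filter and 2 at a mean of at least 1 CPM, where fewer or more genes were tested. Of the 2 called serpins, 1 was called at a mean of at least 1 CPM and 1 with DESeq2's Wald test. Of the convertases and cofactors, 5 were called with total counts only, and 2 to 4 without each sample, the 4 arising without control replicate 1. The difference in the Timp1 share turned negative in some fits without 1 sample (from -0.266 to 0.501 points, with -0.0212 without Folfiri replicate 3), and that of Timp2 ran from -0.571 to 0.201 points. The Timp3 share rose by 0.113 points with the longest transcript and 0.15 points without length scaling, and without length scaling the Mmp7 share differed by -4.11 and the Mmp15 share by 4.02 points. The cause of these shifts was not tested.

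Deviations of same-numbered samples correlated at 0.0267, -0.117 and 0.0393, and those of differently numbered samples at -0.118 to 0.12. The replicate numbers thus showed no sign of pairing, which 3 samples per group cannot exclude. With the number as a replicate block, 11499 genes were called. Replicates were uneven by the chi-square of their counts per degree of freedom. It was 23.7 and 22.4 for control replicate 1 against replicates 2 and 3, and 3.84 between those. Folfiri replicate 3 gave 12.3 and 11.9 against replicates 1 and 2, with 3.55 between those. Depth limits Mmp14 and Timp3, which had at most 8 and 15 counts in a sample.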

Other observations

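Mmp7 lies at the end of a cluster of 10 MMP genes on chr9:7272514-7699585 of GRCm38, a stretch of 0.427 Mb chosen for description after the values were seen. In order these are Mmp13, Mmp12, Mmp1b, Mmp3, Mmp1a, Mmp10, Mmp8, Mmp27, Mmp20 and Mmp7. Of the 10, 8 had at most 10 counts over the 3 controls, and 9 had more counts after Folfiri than in controls. Of all 8866 genes with at most 10 control counts, 76.5% had more counts after Folfiri, so such a tally is common among genes this low, and Mmp1a, Mmp8 and Mmp27 had at most 2 counts in all. Mmp7 was the exception, with 405 counts in controls and 325 after Folfiri. Mmp3, stromelysin-1, went from 1 to 33 counts (depth-scaled ratio 25.4, 95% counting interval 4.25 to 1030). Mmp1b went from 0 to 12 counts, at least 3.08-fold higher against a floor of 3 counts over the group, and Mmp20 from 0 to 10, at least 2.57-fold higher. The gelatinase gene Mmp9, which is elsewhere in the genome, went from 1 to 16 counts, a ratio of 12.3.

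Cep295nl lies within an intron of Timp2 on the same strand and shares 0 exon bases with it. It went from 29, 22 and 16 counts in controls to 372, 439 and 487 after Folfiri, or from 0.916 ± 0.115 to 13.8 ± 1.19 CPM (mean ± SD, n = 3 per group), a log2 change of 3.89 (SE 0.16, adjusted p = 1.1e-08, edgeR), while its host gene had a log2 change of 0.12. It was chosen after its values were seen.

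By the distance between centred log2 CPM values over the 6 samples, among 12912 genes averaging 1 CPM or more, the genes nearest to Plau were Oxct2b (0.114 log2 units), Gpx8 (0.154) and Tbrg4 (0.16). Those nearest to Mmp7 were Gm8618 (0.295), Ogfod3 (0.31) and Rusc1 (0.314). With 6 samples in 2 groups, likeness of this kind mostly follows the size of the group difference.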
